A study of Bos taurus with 31 samples.

Results

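The 36 genes described here mark liver macrophages, among them the Kupffer cells that live in the sinusoids. They were chosen by symbol in the raw count table of 24616 bovine genes, and all 36 were found, each in 1 row, and all 36 passed the filter of at least 20 reads summed over the cows. They were sorted by textbook role into 11 genes usually read as resident Kupffer cell genes, 10 usually read as genes of monocytes and recruited macrophages, and 15 that both express. Total RNA of liver biopsies taken in study week 16 from 31 lactating dairy cows had been sequenced, 1 library per cow. The CON groups received a control ration and the GLY groups a ration contaminated with glyphosate residues, and each was fed with a high (HC) or a low (LC) concentrate feed proportion. This gave 8 CONHC, 8 CONLC, 8 GLYHC and 7 GLYLC cows, all German Holstein cows. The libraries held 11675775 to 36675542 counted reads, and the middle library 19781078. Genes of other cells stood apart most in 2 of them, intestinal genes in GLYLC cow 912 and genes of stellate cells and fibroblasts in CONLC cow 103, so the main counts are also given without these 2 cows.

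Kupffer cells are the largest population of tissue macrophages in the body. They sit in the blood stream of the liver, bind bacteria and spent red cells through scavenger receptors, complement and Fc receptors, and destroy what they engulf in the lysosome. They renew themselves locally, while monocytes that follow the chemokine receptor CCR2 out of the blood can enter the liver and turn into macrophages. In rodents and humans the surface proteins TIMD4, VSIG4, MARCO and CD163 and the secreted protein CD5L are read as signs of resident cells, and CCR2, ITGAM, TREM2 and GPNMB as signs of arriving or lipid-loaded ones. How far these readings hold in cattle is not known from the files.

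The first question was whether these genes differed between cows on high and on low concentrate. With HC, 34 of the 36 genes had a higher fitted level than with LC over all cows, with a median log2 fold change of 0.37, while 46% of all genes tested were higher and their median was -0.01. For a call, edgeR's quasi-likelihood test had to give an adjusted p under 0.1, with adjustment over all genes tested, and an unadjusted p under 0.05. By this rule 6 of the 36 genes rose with HC, against 0.679% of all genes called higher and 1.45% called in either direction. They were FCGR2A and ADGRE1, CTSS and CD68, CYBB and CD5L, and no member was called lower. FCGR2A was called in each of the 31 fits that left out 1 cow, while the other 5 genes lost their call in 11 to 22 of these fits, and the number of members called ran from 1 to 13. Without GLYLC cow 912 and CONLC cow 103 the median was 0.35 and 1 member was called, FCGR2A. At an unadjusted p under 0.05, 22 of the 36 were higher with HC, against 5.88% of all genes, and none was lower. The 36 genes were chosen with earlier results of these data known, so these counts describe them and are not independent evidence. In whole liver RNA, more macrophages and more of these transcripts in each macrophage cannot be told apart. Reads of some members from other leukocytes cannot be told apart from these either.

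**Figure D1:**
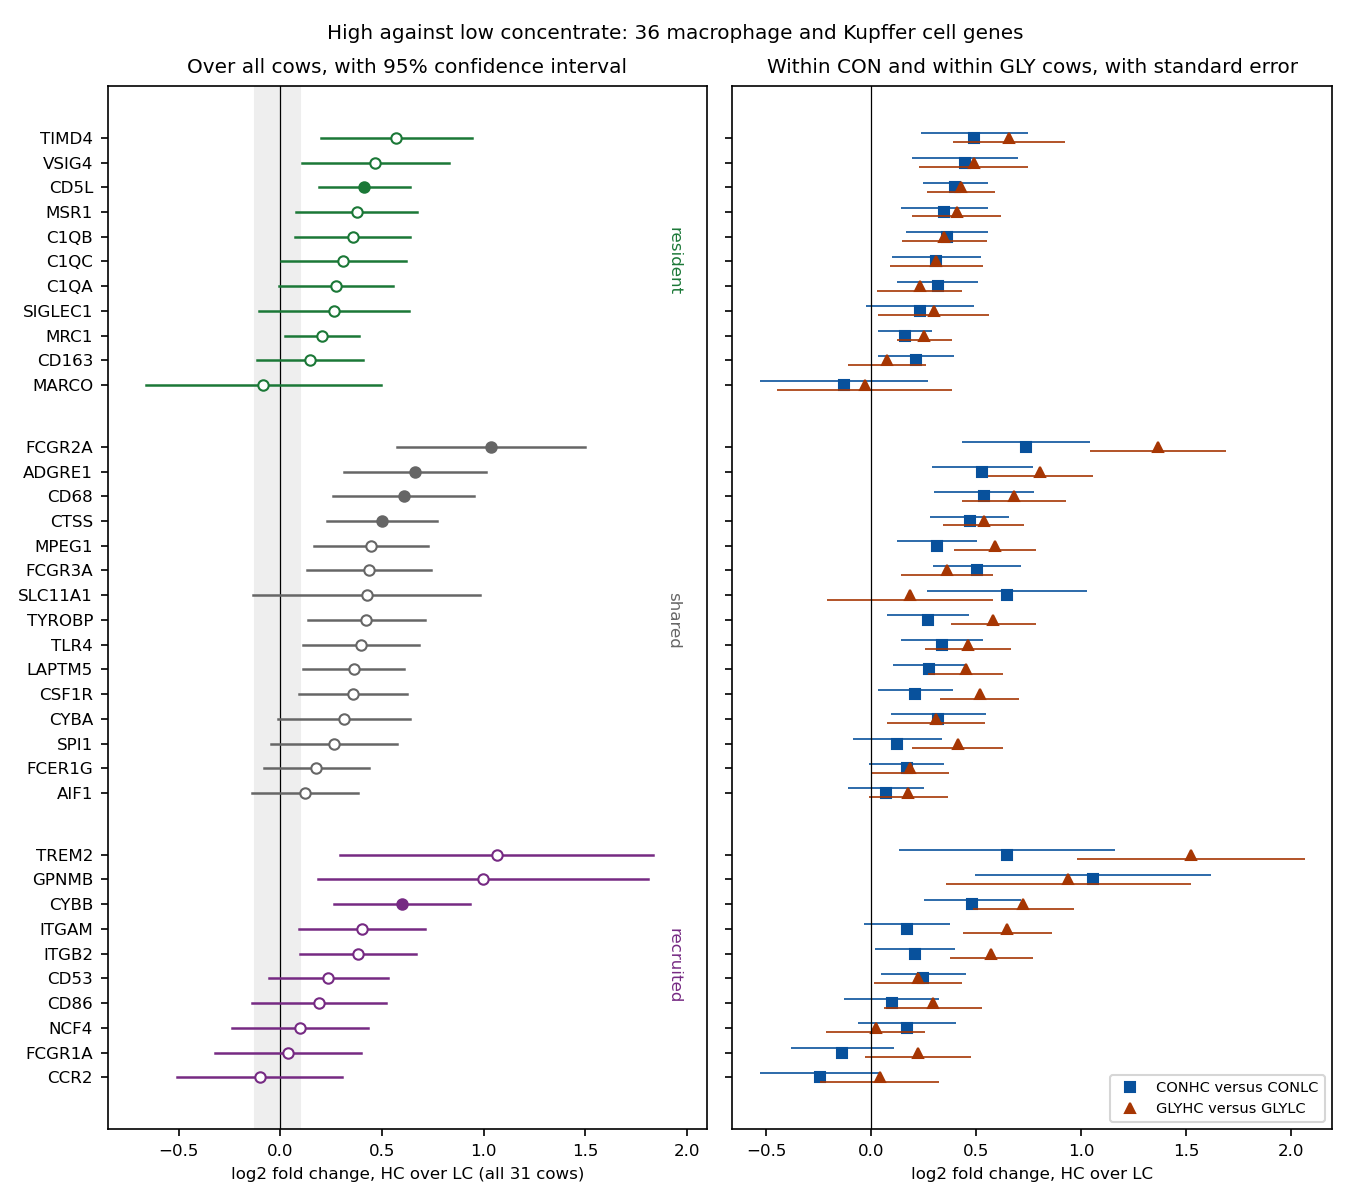
Log2 fold change of HC over LC for the 36 genes, grouped by class: over all 31 cows with the 95% confidence interval (left, filled points are called, grey band runs from the lower to the upper quartile of all genes tested) and within CON and within GLY cows with the standard error (right). All points but MARCO and CCR2 lie right of 0 on the left, and 6 points are filled.

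The CON and the GLY cows are separate animals, so the 2 comparisons within treatment do not share a library. In CON cows 33 of the 36 genes were higher with HC, against 46.1% of all genes, with a median log2 fold change of 0.31. None was called there, as 0% of all genes were, while 7 were higher at an unadjusted p under 0.05 beside 2.71% of all genes. In GLY cows 35 of 36 were higher, against 48.6% of all genes, with a median of 0.41. There 1 member was called, FCGR2A, beside 0.201% of all genes called and 0.0377% called higher, and 15 were higher at an unadjusted p under 0.05 beside 5.06% of all genes. This call was lost in 22 of the 31 fits that left out 1 cow. In both treatments 33 of the 36 genes were higher with HC. After centring on group means, the 36 genes varied together between cows, with a median Pearson r of 0.58 over 630 pairs. Counts such as 33, 34 or 35 of 36 are therefore not counts of independent genes.

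**Figure D2:**
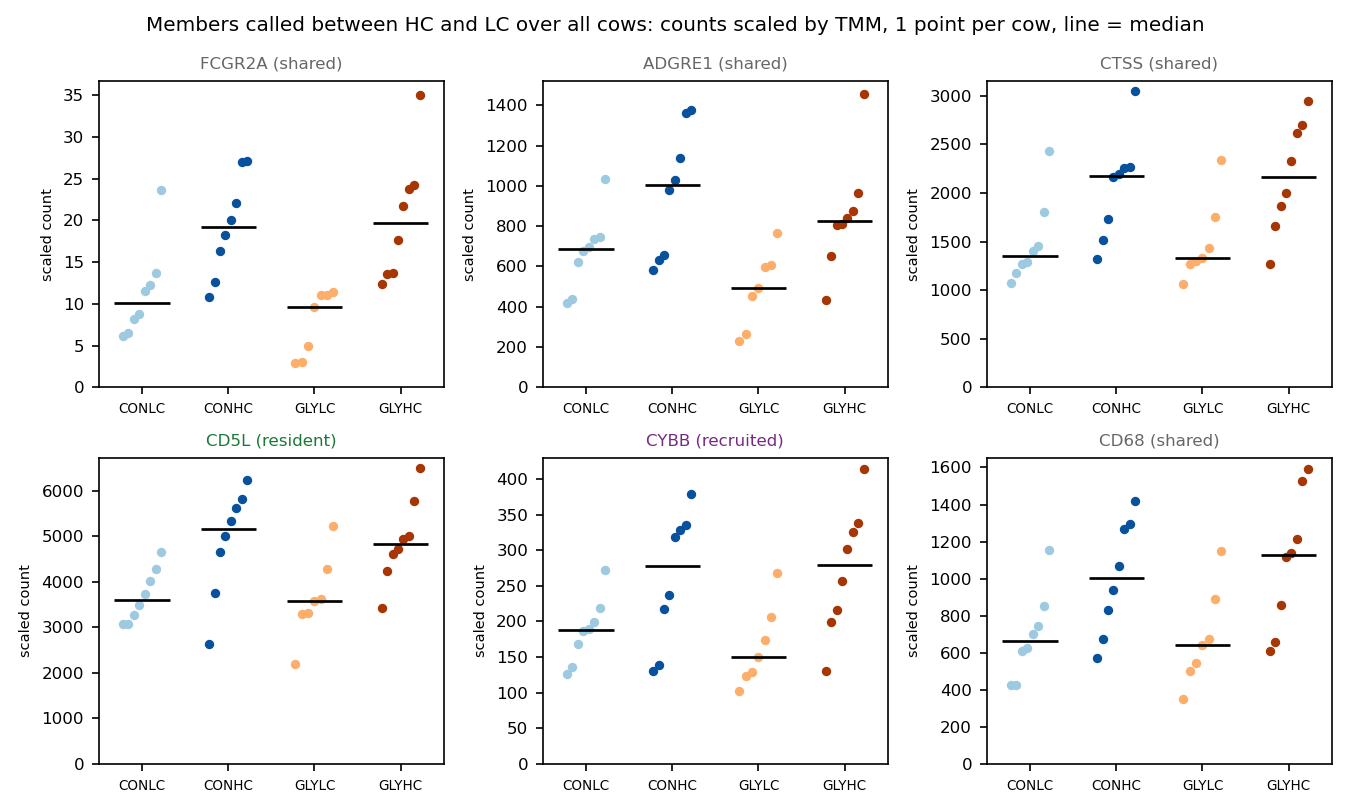
Counts scaled by TMM to the mean library size (vertical axis, from 0) of the 6 genes called between HC and LC over all cows, with 1 point per cow and a line at the group median. The HC median lies above the LC median in both treatments for each of the 6 genes, and the points overlap in every panel but for FCGR2A in GLY cows.

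The Fc receptors bind antibody on coated particles. In humans FCGR2A carries a signalling motif of its own, while FCGR1A and FCGR3A signal through the adaptor FCER1G. FCGR2A, a receptor for IgG, is read at a low level, with 445 reads over all cows. A scaled count is the raw count of a cow scaled by its TMM library size to the mean library. Scaled counts of FCGR2A in CON cows were 6.19 to 23.6 (median 10.2) with LC and 10.8 to 27.1 (median 19.2) with HC. FCGR2A in GLY cows was at 2.99 to 11.5 (median 9.63) with LC and 12.4 to 35.1 (median 19.7) with HC. All 16 HC cows lay above the median of the LC cows, and in GLY cows the HC and LC ranges did not overlap. The gap was narrow, from 11.5 to 12.4. Such a gap was found for 1 of the 36 genes in GLY cows and for 0 in CON cows. How many of all genes tested have one was not measured. Over all cows, FCGR2A had a log2 fold change of HC over LC, given with its standard error, of 1.04 ± 0.23 (edgeR adjusted p = 0.0371), which is 2.05-fold. It was 0.74 ± 0.31 in CON cows (adjusted p = 0.769) and 1.37 ± 0.32 in GLY cows (adjusted p = 0.0994). FCGR2A and TREM2 stand in the list that the study drew from GLYHC and GLYLC in these same cows, so their difference there is not independent evidence. The comparison over all cows holds the same GLY cows, so the values of both genes in it are not independent of that list either. Without cows 912 and 103 the log2 fold change of FCGR2A was 1.23 in GLY cows, with an adjusted p of 0.42 in edgeR, and was not called there. The 95% confidence intervals of the effect in CON cows (0.11 to 1.36) and in GLY cows (0.71 to 2.03) overlapped, and the interaction had an unadjusted p of 0.163.

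The other Fc receptors differed less. FCGR3A, the low affinity receptor of macrophages and natural killer cells, was at 592 to 1694 (median 938) in CONLC and 677 to 2012 (median 1462) in CONHC, and at 647 to 1576 (median 1065) in GLYLC and 784 to 1897 (median 1321) in GLYHC. It was higher with HC in 14 of 16 cows relative to the LC median, with a log2 fold change of 0.44 ± 0.15 (edgeR adjusted p = 0.171) that did not pass the adjustment, and of 0.50 ± 0.21 in CON cows (adjusted p = 0.774). FCGR1A, the high affinity IgG receptor, lay at 0.04 over all cows with a 95% interval of -0.32 to 0.40, and its sign differed between CON cows (-0.14) and GLY cows (0.22). Reads that match more than 1 of the related Fc gamma receptor genes were left out by counting of unique reads, and how many those were was not measured.

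TREM2, a lipid receptor that signals through TYROBP, was the most sparsely read member, with 381 reads over all cows. In cows of the CON groups, TREM2 was at 1.77 to 29.3 (median 5.99) with LC and 1.49 to 30.9 (median 10.9) with HC. TREM2 in GLY cows was at 2.28 to 11.5 (median 5.54) with LC and 5.50 to 29.0 (median 22.6) with HC. The 4 groups overlapped, but 7 of 8 GLYHC cows lay above the GLYLC median. Over all cows, TREM2 had a log2 fold change of 1.07 ± 0.38 (edgeR adjusted p = 0.184), similar in size to FCGR2A but with a larger standard error. It was 0.64 ± 0.52 in CON cows (adjusted p = 0.958) and 1.52 ± 0.54 in GLY cows (adjusted p = 0.247), and it was not called in any comparison of the main fits. Among alternative fits, TREM2 was called in 1 of 40 for HC over LC in GLY cows and in 1 of 38 over all cows. The value in CON cows depended on single cows, being 1.22 without CONLC cow 260, the highest of its group, and 0.40 without CONHC cow 208. The adaptor TYROBP itself was at 111 to 289.7 (median 165) in CONLC, 132 to 298 (median 216) in CONHC, 100.3 to 227 (median 144) in GLYLC and 146 to 343 (median 223) in GLYHC. Its log2 fold change was 0.42 ± 0.14 (edgeR adjusted p = 0.162), and 0.58 ± 0.20 in GLY cows (adjusted p = 0.237). FCER1G, the adaptor of FCGR1A and FCGR3A, lay at 0.18, with an interval of -0.08 to 0.44.

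The scavenger and engulfment receptors hold most of the markers of resident Kupffer cells. Of these 8 genes 7 were higher with HC, beside 46% of all genes, and 1 was called, beside 0.679% called higher. CD5L, a protein that macrophages secrete and that binds lipids and IgM, was the one called. Among the CON cows, CD5L had scaled counts of 3077 to 4657 (median 3606) with LC and 2634 to 6232 (median 5165) with HC. CD5L in GLY cows was at 2186 to 5235 (median 3567) with LC and 3413 to 6502 (median 4831) with HC. Relative to the LC median, 14 of 16 HC cows were higher, and the ranges overlapped in both treatments. Over all cows, CD5L had a log2 fold change of 0.41 ± 0.11 (edgeR adjusted p = 0.086), a 1.33-fold difference. It was 0.40 ± 0.16 in CON cows (adjusted p = 0.75) and 0.43 ± 0.16 in GLY cows (adjusted p = 0.266), so the values for CD5L were nearly the same in both.

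TIMD4, which binds phosphatidylserine on dying cells, had the largest difference of the resident class without being called. Scaled counts of TIMD4 in CON cows were 132 to 364 (median 272) with LC and 156 to 619.8 (median 365) with HC. TIMD4 in GLY cows was at 80.6 to 296 (median 200.3) with LC and 152 to 572 (median 309.6) with HC. The HC median was above the LC median in both treatments, with overlap. Over all cows, TIMD4 had a log2 fold change of 0.57 ± 0.18 (edgeR adjusted p = 0.138). It was 0.49 ± 0.26 in CON cows (adjusted p = 0.835) and 0.66 ± 0.27 in GLY cows (adjusted p = 0.296). VSIG4, the complement receptor of the immunoglobulin family of tissue macrophages, was at 62.3 to 162 (median 116) in CONLC, 66.6 to 276 (median 144) in CONHC, 59.3 to 218 (median 105) in GLYLC and 98.1 to 223 (median 179) in GLYHC. Its log2 fold change was 0.47 ± 0.18 (edgeR adjusted p = 0.222) over all cows. It was 0.45 ± 0.25 in CON cows (adjusted p = 0.872) and 0.49 ± 0.26 in GLY cows (adjusted p = 0.448).

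CD163, the receptor for haemoglobin bound to haptoglobin, differed little. In cows of the CON groups, CD163 was at 999 to 2071 (median 1379.8) with LC and 909.5 to 2130.2 (median 1669.6) with HC. CD163 in GLY cows was at 1118 to 2589 (median 1404) with LC and 964 to 2083 (median 1842) with HC. The highest cow of all was GLYLC cow 912, the cow with intestinal genes. Over all cows, CD163 had a log2 fold change of 0.15 ± 0.13 (edgeR adjusted p = 0.669) with an interval of -0.11 to 0.41, and it was 0.21 ± 0.18 in CON cows (adjusted p = 0.96) and 0.08 ± 0.19 in GLY cows (adjusted p = 0.916). Without cow 912 the log2 fold change of CD163 in GLY cows was 0.24 (edgeR adjusted p = 0.752). MARCO, a scavenger receptor for bacteria, was the only resident gene with a lower fitted level with HC. Among the CON cows, MARCO had scaled counts of 477 to 2764 (median 1277) with LC and 363 to 3076 (median 1115) with HC. MARCO in GLY cows was at 351 to 2990.3 (median 1551) with LC and 512 to 2216 (median 1378) with HC. The ranges of the 4 groups largely coincided. Over all cows, MARCO had a log2 fold change of -0.08 ± 0.28 (edgeR adjusted p = 0.948) with an interval of -0.66 to 0.50, which includes falls and rises alike. It was -0.13 ± 0.40 in CON cows (adjusted p = 0.997) and -0.03 ± 0.41 in GLY cows (adjusted p = 0.988). Its sign turned when CONLC cow 260 or GLYLC cow 544 was left out (0.03 in both cases), so no direction is given for it.

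The remaining scavenger receptors were closer to the common level of change. MSR1, the class A scavenger receptor, lay at 0.38 ± 0.15, MRC1, the mannose receptor, at 0.20 ± 0.09, and SIGLEC1, the sialic acid receptor of sinusoidal macrophages, at 0.26 ± 0.18 on the log2 scale over all cows. MSR1 and MRC1 had an unadjusted p of 0.0148 and 0.0304, and SIGLEC1 of 0.157. MRC1 was the steadiest member, with a standard deviation within groups of 0.26 on the log2 scale, against 0.90 for MARCO.

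The 3 chains of C1q, the complement protein that macrophages make and that tags antibody and dying cells, had similar log2 fold changes. C1QA was at 2718 to 5432 (median 3445) in CONLC, 2180.0 to 6415 (median 4549) in CONHC, 2805 to 5368 (median 3708) in GLYLC and 2569 to 7098 (median 4199.7) in GLYHC. Its log2 fold change was 0.27 ± 0.14 (edgeR adjusted p = 0.378) over all cows, 0.32 ± 0.19 in CON cows (adjusted p = 0.901) and 0.23 ± 0.20 in GLY cows (adjusted p = 0.687). C1QB lay at 0.36 ± 0.14 and C1QC at 0.31 ± 0.15 over all cows. All 3 chains had a higher HC than LC median in both treatments, none was called, and C1QB and C1QC had an unadjusted p under 0.05.

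CSF1R, the receptor on which macrophages depend for survival, and SPI1, the transcription factor of the myeloid lineage, had larger log2 fold changes in GLY than in CON cows, without a shown difference between the treatments. Scaled counts of CSF1R in CON cows were 934 to 1314 (median 1109) with LC and 575 to 1735 (median 1376) with HC. CSF1R in GLY cows was at 675 to 1345 (median 962) with LC and 875 to 2069 (median 1329) with HC. The log2 fold change of CSF1R was 0.36 ± 0.13 over all cows (edgeR adjusted p = 0.201), 0.21 in CON cows, and 0.52 ± 0.19 in GLY cows (adjusted p = 0.248). For SPI1 these were 0.26, 0.12 and 0.41. Neither gene was called, and the difference between the treatments had an unadjusted p of 0.245 for CSF1R and 0.35 for SPI1.

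The genes tied to entry from the blood did not share 1 pattern. CCR2, the chemokine receptor of classical monocytes, was read sparsely, with 498 reads over all cows. In cows of the CON groups, CCR2 was at 10.6 to 23.4 (median 14.1) with LC and 6.91 to 23.8 (median 10.6) with HC. CCR2 in GLY cows was at 9.88 to 31.8 (median 13.3) with LC and 12.8 to 29.7 (median 17.9) with HC. The groups overlapped throughout. Its log2 fold change was -0.10 ± 0.20 (edgeR adjusted p = 0.887) over all cows with an interval of -0.51 to 0.30, and it was -0.25 ± 0.28 in CON cows (adjusted p = 0.989) and 0.04 ± 0.28 in GLY cows (adjusted p = 0.975). Its sign in GLY cows turned when 1 of 6 cows was left out, as without GLYLC cow 912 (-0.07) or GLYHC cow 117 (-0.08).

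ITGAM and ITGB2 encode the chains of the integrin CD11b/CD18, by which monocytes, neutrophils and macrophages adhere. ITGAM was at 114 to 318 (median 186) in CONLC and 156 to 311 (median 191) in CONHC, which are near each other, and at 112 to 258 (median 167) in GLYLC and 133 to 396 (median 267) in GLYHC. Over all cows, ITGAM had a log2 fold change of 0.40 ± 0.15 (edgeR adjusted p = 0.218). It was 0.17 ± 0.20 in CON cows (adjusted p = 0.989) and 0.65 ± 0.21 in GLY cows (adjusted p = 0.21). ITGB2 behaved alike, with 0.38 ± 0.14 over all cows, 0.21 in CON cows and 0.57 ± 0.20 in GLY cows (edgeR adjusted p = 0.236). The interaction for ITGAM had the smallest unadjusted p of the 36 genes, 0.113, so a difference between the treatments was not shown.

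**Figure D3:**
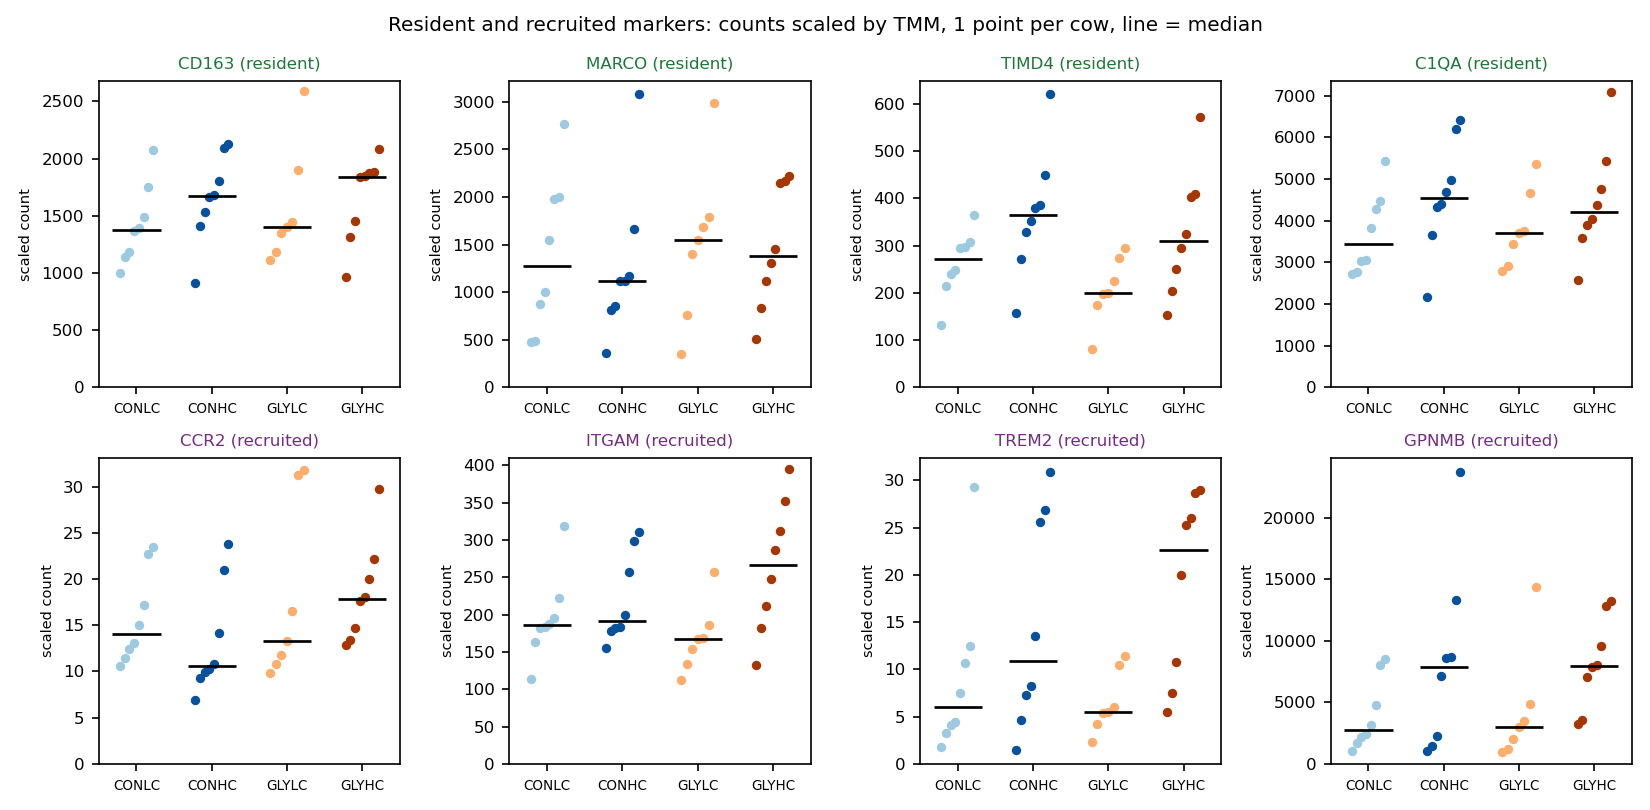
Counts scaled by TMM (vertical axis, from 0) of 4 genes read as resident (green titles) and 4 read as recruited (purple titles), with 1 point per cow and a line at the group median. The HC medians of CD163, TIMD4, C1QA, ITGAM, TREM2 and GPNMB exceed the LC medians in both treatments. For MARCO the HC median is the lower one in both, and for CCR2 it is lower in CON and higher in GLY cows.

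The NADPH oxidase makes the oxygen radicals of the phagosome. CYBB, its catalytic subunit, was the 1 gene of the recruited class that was called. Among the CON cows, CYBB had scaled counts of 126 to 272 (median 188) with LC and 130.0 to 379 (median 278) with HC. CYBB in GLY cows was at 103 to 268 (median 151) with LC and 131 to 414 (median 279) with HC. Of the 16 HC cows, 13 lay above the LC median, with overlap in both treatments. Over all cows, CYBB had a log2 fold change of 0.60 ± 0.17 (edgeR adjusted p = 0.0918), a 1.51-fold difference. It was 0.48 ± 0.23 in CON cows (adjusted p = 0.813) and 0.73 ± 0.24 in GLY cows (adjusted p = 0.211). CYBA, its partner in the membrane, lay at 0.31 ± 0.16 (unadjusted p = 0.0575) and NCF4, a regulatory subunit of the cytosol, at 0.10 ± 0.16 (unadjusted p = 0.56).

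The genes of lysosome and phagosome had the highest median of the larger role groups, 0.47 on the log2 scale. Of the 6, 2 were called, beside 0.679% of all genes called higher. CTSS, the protease that trims the chain of MHC class II molecules, rose with HC. Scaled counts of CTSS in CON cows were 1076 to 2436 (median 1351) with LC and 1320.1 to 3049 (median 2180.0) with HC. CTSS in GLY cows was at 1068 to 2338 (median 1331) with LC and 1268 to 2946 (median 2169) with HC. The group medians under LC nearly coincided, and so did those under HC. Over all cows, CTSS had a log2 fold change of 0.50 ± 0.13 (edgeR adjusted p = 0.081), with 14 of 16 HC cows above the LC median. It was 0.47 ± 0.19 in CON cows (adjusted p = 0.75) and 0.54 ± 0.19 in GLY cows (adjusted p = 0.248).

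CD68, a glycoprotein of the lysosome membrane and the usual marker of macrophages in tissue, rose as well. In cows of the CON groups, CD68 was at 424 to 1157 (median 665) with LC and 570.2 to 1417 (median 1002) with HC. CD68 in GLY cows was at 349.6 to 1151 (median 640.2) with LC and 612 to 1589 (median 1128) with HC. Over all cows, CD68 had a log2 fold change of 0.61 ± 0.17 (edgeR adjusted p = 0.0948), a 1.52-fold difference with overlapping ranges. It was 0.54 ± 0.24 in CON cows (adjusted p = 0.802) and 0.68 ± 0.25 in GLY cows (adjusted p = 0.251). MPEG1, a pore-forming protein of the phagosome, lay at 0.45 ± 0.14 (edgeR adjusted p = 0.123) over all cows and at 0.59 ± 0.20 in GLY cows (adjusted p = 0.218). LAPTM5, a lysosomal protein of blood cells, lay at 0.36 ± 0.12 (edgeR adjusted p = 0.169) over all cows. Neither passed the adjustment.

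GPNMB, a glycoprotein of lipid-laden macrophages that other liver cells can also express, varied most from cow to cow. Among the CON cows, GPNMB had scaled counts of 1031 to 8567 (median 2787) with LC and 1073 to 23738 (median 7879.8) with HC. GPNMB in GLY cows was at 958 to 14355 (median 3015) with LC and 3284 to 13260.2 (median 7958) with HC. The highest cow of all, in CONHC, was 24.8 times the lowest, in GLYLC. Over all cows, GPNMB had a log2 fold change of 1.0 ± 0.40 (edgeR adjusted p = 0.245). It was 1.06 ± 0.56 in CON cows (adjusted p = 0.843) and 0.94 ± 0.58 in GLY cows (adjusted p = 0.53). The standard deviation within groups was 1.22 on the log2 scale, the widest of the 36 genes, and the difference did not pass the adjustment. SLC11A1, the metal ion pump of the phagosome, was similarly uneven, at 34.2 to 322 (median 91.4) in CONHC against 29.2 to 158 (median 62.2) in GLYHC, and its log2 fold change of HC over LC was 0.43 ± 0.27.

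ADGRE1 encodes the adhesion receptor known as F4/80, the standard macrophage marker in mice. Scaled counts of ADGRE1 in CON cows were 419 to 1036 (median 687) with LC and 583 to 1377 (median 1003) with HC. ADGRE1 in GLY cows was at 233 to 769 (median 491) with LC and 434 to 1457 (median 827) with HC. It rose with HC, with a log2 fold change of 0.66 ± 0.17 (edgeR adjusted p = 0.0738), a 1.58-fold difference, and 14 of 16 HC cows lay above the LC median. It was 0.53 ± 0.24 in CON cows (adjusted p = 0.802) and 0.81 ± 0.25 in GLY cows (adjusted p = 0.194). Both GLY groups had lower medians of ADGRE1 than the CON groups on the same concentrate, with a log2 fold change of GLY over CON of -0.32 ± 0.17 and the smallest unadjusted p of the 36 genes in that comparison, 0.0742. AIF1, a cytoskeletal protein of macrophages, and the membrane protein CD53 lay at 0.12 ± 0.13 and 0.24 ± 0.14 for HC over LC. TLR4, the receptor for endotoxin, lay at 0.40 ± 0.14 (unadjusted p = 0.00787) and CD86, a costimulatory protein, at 0.19 ± 0.16 (unadjusted p = 0.243), none of them called.

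Set side by side, the ranges of the classes overlapped. Over all cows the median log2 fold change of HC over LC was 0.31 in the resident, 0.31 in the recruited and 0.42 in the shared class. In these classes 1 of 11, 1 of 10 and 4 of 15 genes were called, beside 0.679% of all genes called higher. In CON cows the medians were 0.32, 0.19 and 0.32, and in GLY cows 0.31, 0.43 and 0.46. Each class held genes near 0 beside genes that were much higher. The resident class ran from -0.08 (MARCO) to 0.57 (TIMD4), the recruited class from -0.10 (CCR2) to 1.07 (TREM2) and the shared class from 0.12 (AIF1) to 1.04 (FCGR2A). The difference between the classes was not tested.

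**Figure D4:**
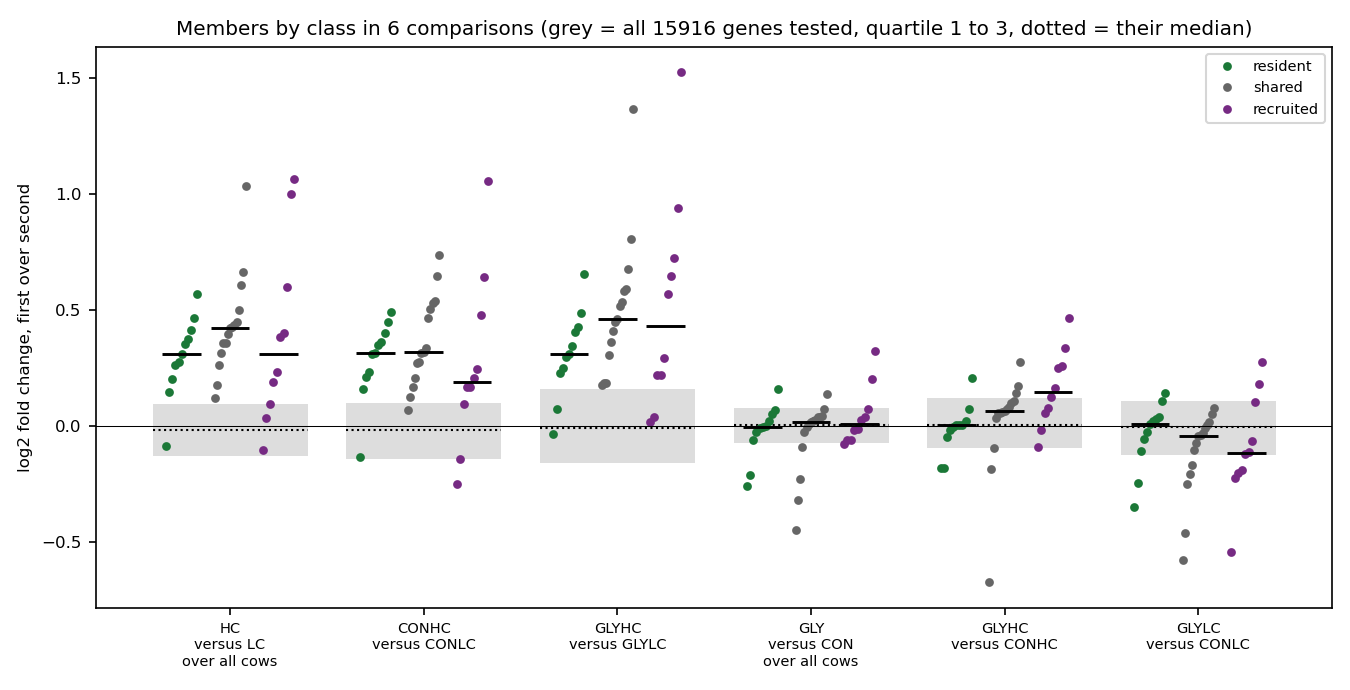
Log2 fold change of each of the 36 genes in 6 comparisons, by class, with a line at the class median, a grey band from the lower to the upper quartile of all genes tested and a dotted line at their median. In the 3 comparisons of HC with LC the class medians lie above the band, from 0.19 to 0.46. In the comparisons of GLY with CON they lie between -0.11 and 0.15 and inside the band, except the recruited median of 0.15 in GLYHC versus CONHC, which is above it.

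Glyphosate residues gave no call among the 36 genes, in edgeR or in DESeq2. Over all cows 19 genes were higher and 17 lower in GLY than in CON, with a median log2 fold change of 0.01. None was called, as 0% of all genes were, and none had an unadjusted p under 0.05, where 3.92% of all genes did. For 27 of the 36 genes the log2 fold change of GLY over CON was smaller than 0.1 in size. The ends of the list were SLC11A1 at -0.45 ± 0.27 and CCR2 at 0.32 ± 0.20, neither with an unadjusted p under 0.05.

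Within HC feeding, 26 of the 36 genes were higher in GLYHC than in CONHC with a median of 0.06, and within LC feeding 13 were higher in GLYLC than in CONLC with a median of -0.05. The recruited class had medians of 0.15 and -0.11 in these comparisons, the shared class 0.07 and -0.04, and the resident class 0.00 and 0.01. None was called in either, beside 0% and 0.0628% of all genes, and none had an unadjusted p under 0.05, beside 2.92% and 5.65% of all genes. The interaction asks whether the effect of concentrate differed between the treatments. The log2 fold change of HC over LC was larger in GLY than in CON cows for 27 of the 36 genes, beside 51.7% of all genes, with a median difference of 0.10. This median was -0.02 without CONLC cow 260 and 0.26 without GLYLC cow 544, so no direction is given for it. By class it was 0.27 in the recruited, 0.14 in the shared and 0.04 in the resident genes. No gene was called in the interaction, as 0% of all genes were, nor had an unadjusted p under 0.05, beside 4.21% of all genes. For TREM2 the difference was 0.88 ± 0.74 with an interval of -0.64 to 2.39, and for FCGR2A 0.63 ± 0.44 with an interval of -0.27 to 1.53. These intervals include 0 and also differences as large as the concentrate effect itself.

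The genes also varied between cows of the same group, and many of them varied together. CONLC cow 260 held the highest value of its group for 29 of the 36 genes, GLYHC cow 117 and GLYLC cow 544 for 25 each, and CONHC cow 123 for 24. At the other end, GLYHC cow 37 was the lowest of its group for 31 genes, CONHC cow 134 for 27 and GLYLC cow 912 for 20. The median over the 36 genes, each centred on its median over the cows, ran from -0.63 to 0.61 in CONHC, from -0.63 to 0.48 in CONLC, from -0.47 to 0.81 in GLYHC and from -0.62 to 0.35 in GLYLC on the log2 scale. All 4 groups thus overlapped in this measure, and the group medians were 0.16, -0.06, 0.27 and -0.24.

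**Figure D5:**
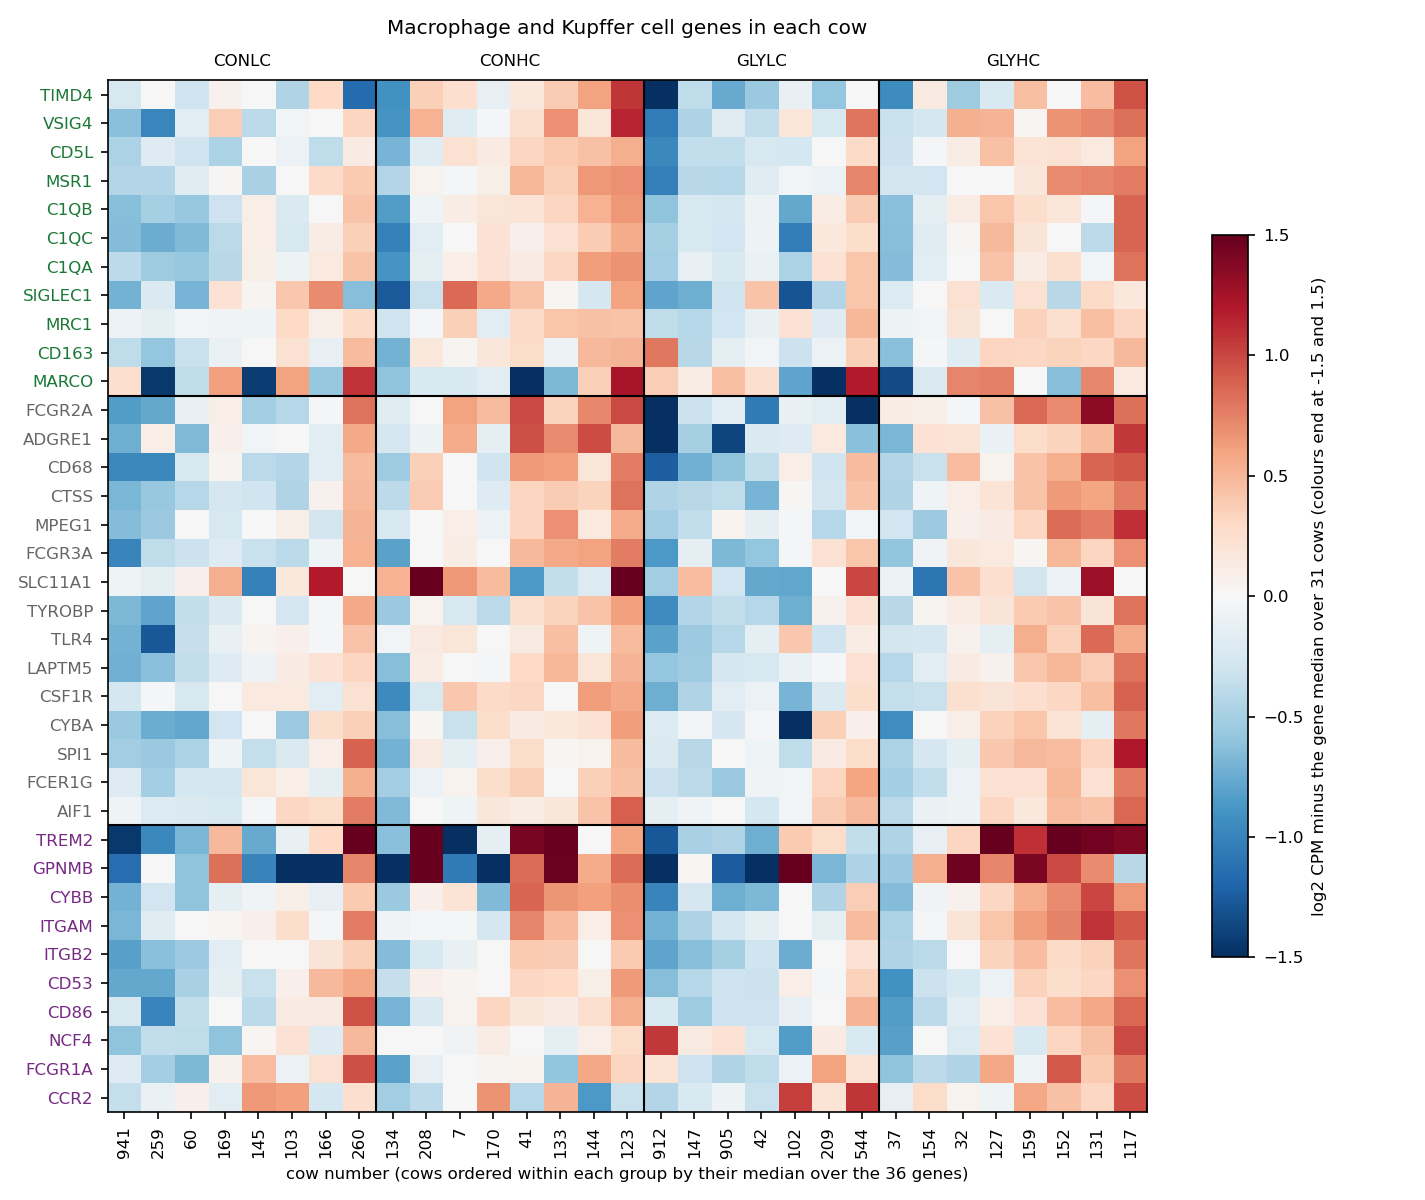
Log2 CPM of each gene (rows, by class) in each cow (columns, by group and ordered by the cow's median over the 36 genes), minus the gene's median over the 31 cows, with red for higher and blue for lower. Whole columns turn red or blue together, as for CONLC cow 260 and GLYHC cow 37, while the rows of SLC11A1, GPNMB, MARCO and SIGLEC1 follow them least.

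After each gene was centred on its group mean, the 630 pairs among the 36 genes had a median Pearson r of 0.58 over the 31 cows, as a description of genes measured in the same libraries. Genes of the resident class had a median r of 0.53 with each other, those of the recruited class 0.53, and the 2 classes 0.48 with one another. LAPTM5 was closest to the others, with a median r of 0.78, and C1QA and C1QB formed the closest pair at 0.98. The 4 genes that followed the others least were SLC11A1 (median r of 0.18), GPNMB (0.24), MARCO (0.27) and SIGLEC1 (0.31).

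Correlations of 10 pairs were tested by two-sided permutation of cows within groups, with adjustment over the 10. The test sets r against 0, while the median r of all 630 pairs was 0.58. A pair that passes is therefore not shown to be closer than other pairs of these genes. CSF1R and SPI1 had a Pearson r of 0.71 (permutation p = 2e-05, adjusted p = 2e-04) and a Spearman rho of 0.62 (permutation p = 0.00043, adjusted p = 0.00143), and r was 0.60 without the 2 cows farthest from the median of CSF1R. TREM2 and GPNMB had an r of 0.61 (permutation p = 0.00097, adjusted p = 0.00242) and a rho of 0.63 (permutation p = 0.00065, adjusted p = 0.00162), with an r of 0.57 without the 2 farthest cows. CD163 and CCR2, a resident and a recruited marker, had an r of 0.16 (permutation p = 0.446, adjusted p = 0.446) and a rho of 0.17 (permutation p = 0.384, adjusted p = 0.384), and r was 0.25 without the 2 farthest cows. Within the groups this last r ran from -0.15 in GLYLC to 0.69 in GLYHC, so it was not of 1 sign. This pair does not stand for the 2 classes. With the 10 recruited genes, the r of CD163 ran from 0.03 (GPNMB) to 0.77 (CD86). CCR2 had a median r of 0.33 with the other 35 genes.

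CD163 and C1QA, both resident, had an r of 0.67 (permutation p = 0.00026, adjusted p = 0.000867) and a rho of 0.64 (permutation p = 0.00032, adjusted p = 0.00143), with an r of 0.79 without the 2 farthest cows. It was between 0.83 and 0.90 in 3 groups and -0.04 in GLYLC, where cow 912 combined the highest CD163 of all cows with low C1q. FCGR2A and FCGR3A had an r of 0.57 (permutation p = 0.002, adjusted p = 0.004) and a rho of 0.53 (permutation p = 0.00513, adjusted p = 0.00855), with an r of 0.69 without the 2 farthest cows and from 0.14 in GLYLC to 0.90 in CONLC within groups.

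TREM2 and its adaptor TYROBP had an r of 0.65 (permutation p = 0.00026, adjusted p = 0.000867) and a rho of 0.65 (permutation p = 0.00031, adjusted p = 0.00143), with an r of 0.59 without the 2 farthest cows. The median r of TREM2 with the other 35 genes was 0.56, and its highest was 0.74, with CD68. CD163 and MARCO had an r of 0.48 (permutation p = 0.0112, adjusted p = 0.018) and a rho of 0.50 (permutation p = 0.00611, adjusted p = 0.00873), with an r of 0.51 without the 2 farthest cows. CCR2 and ITGAM had an r of 0.45 (permutation p = 0.0126, adjusted p = 0.018) and a rho of 0.53 (permutation p = 0.00341, adjusted p = 0.00682), with an r of 0.37 without the 2 farthest cows. Within groups it ran from -0.18 in CONHC to 0.83 in GLYLC, so it was not of 1 sign. The last pairs did not pass at an adjusted p under 0.05. FCGR2A and FCER1G had an r of 0.39 (permutation p = 0.0432, adjusted p = 0.054) and a rho of 0.39 (permutation p = 0.0489, adjusted p = 0.0611), with an r of 0.55 without the 2 farthest cows and from -0.32 in GLYLC to 0.92 in CONHC within groups. CYBB and NCF4, parts of the same oxidase, had an r of 0.21 (permutation p = 0.266, adjusted p = 0.295) and a rho of 0.27 (permutation p = 0.155, adjusted p = 0.173), with an r of 0.08 without the 2 farthest cows and from -0.70 in GLYLC to 0.85 in CONLC within groups.

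Of the genes that work with these 36, the lists were described in the same way for HC over LC over all cows. Of all genes tested, 46% were higher with HC, 5.88% at an unadjusted p under 0.05, and 0.679% were called higher. At that unadjusted p 7.81% were lower. The 4 further NADPH oxidase genes were all higher, with a median log2 fold change of 0.27, 3 of them at an unadjusted p under 0.05 and none called. Of 8 kinases and adaptors of ITAM signalling 7 were higher and 1 was called, the Src family kinase FGR at 0.48 ± 0.13 (edgeR adjusted p = 0.0918). Of 8 genes of monocytes and leukocytes in general 5 were higher and 1 was called, the lysozyme gene LYZ at 1.16 ± 0.29 (edgeR adjusted p = 0.0683). At an unadjusted p under 0.05, 2 of the 8 were higher and 2 lower, and the lowest log2 fold change was -0.58. Cattle carry several related lysozyme genes, so reads of LYZ may be shared among copies. LYZ was also the gene of these lists with the smallest p in CON cows (0.89 ± 0.40, adjusted p = 0.802) and in GLY cows (1.45 ± 0.42, adjusted p = 0.16). In GLY cows FGR came next, at 0.62 ± 0.19 (edgeR adjusted p = 0.187).

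Of 7 transcription factors of Kupffer cells 6 were higher with HC, with a median of 0.18 and none called. IRF8 came nearest at 0.40 ± 0.12 (edgeR adjusted p = 0.11), and in CON cows it lay at 0.32 ± 0.17 (adjusted p = 0.835). Of 9 genes of lipid-associated macrophages 8 were higher, with a median of 0.21 and none called, and in CON cows the protease gene CTSB of this list lay at 0.17 ± 0.08 (edgeR adjusted p = 0.828). The 4 ligands of CSF1R and CCR2 split evenly, with 2 higher and 2 lower, a median of 0.04 and none called. They ran from -1.34 to 0.23, and at an unadjusted p under 0.05, 1 was lower and 0 were higher. The 3 iron-recycling genes and the 2 further integrin genes found had medians of 0.18 and 0.24, with none called.

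Markers of other liver cells were measured in the same libraries, as summed scaled counts over each list. Of 8 endothelial genes 7 were lower with HC, none at an unadjusted p under 0.05, with a median log2 fold change of -0.05 and summed counts of 5593 to 10170 over all cows. The 5 dendritic cell genes, the 8 neutrophil genes and the 7 B and plasma cell genes had medians of 0.02, 0.10 and 0.00, none with an unadjusted p under 0.05. Of 13 rows of T and NK cell genes 10 were higher, with a median of 0.16, and in GLY cows 11 were higher with a median of 0.40, while in CON cows 12 were lower with a median of -0.04. Their summed counts were 427 to 1043 in GLYLC and 559 to 1742 in GLYHC, and 469 to 1355 in CONLC and 513 to 972 in CONHC. Their part in the results was not tested. Hepatocyte genes had a median of 0.09 with 2 of 6 higher at an unadjusted p under 0.05, beside 5.88% of all genes. The 3 bile duct genes found had a median of 0.01, and the 3 erythroid genes tested were lower with a median of -0.95.

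Some libraries stood apart in genes of other cells. CONLC cow 103 had a summed count of 45081 over the 7 genes of stellate cells and fibroblasts, against a median of 4184 over all cows. These genes were lower with HC in all 7 cases with a median of -0.86, 6 of them at an unadjusted p under 0.05, beside 7.81% of all genes lower at that p, and 1 was called lower (edgeR adjusted p = 0.0275), beside 0.773% of all genes. In GLY cows, which do not include cow 103, all 7 were lower too, with a median of -0.63 and 1 called (adjusted p = 0.0848). The median summed count was 4604 in CONLC, 4249 in CONHC, 5009 in GLYLC and 3601 in GLYHC. GLYLC cow 912 had a summed count of 6630 over 5 intestinal genes, where no other cow exceeded 37.3, and it was the lowest GLYLC cow for 20 of the 36 macrophage genes. It also had 3372 over the 7 B and plasma cell genes, against a median of 437 over all cows. The erythroid sum was highest in CONHC cow 133, at 268 against a median of 22.3. Without this cow 1 of the 36 genes was called for HC over LC, and 118 of all genes against 231 with it. This is not particular to cow 133, because 10 of the 31 cows gave 1 called member when left out singly. The part of these genes of other cells in the results was not tested. Both cow 103 and cow 912 are LC cows. Without these 2 the 36 genes had a median log2 fold change of 0.35 for HC over LC over all cows, and 1 gene was called, FCGR2A at 0.94 (edgeR adjusted p = 0.0702). ADGRE1 was then at 0.61, CYBB at 0.57, CD68 at 0.54, CTSS at 0.47 and CD5L at 0.38, none of them called, with adjusted p between 0.132 and 0.181.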

How the data were processed

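Total RNA of liver biopsies was sequenced in 31 cows. Per the labels, libraries were made with a stranded mRNA kit, and the submitters' processing notes name FastQC, Trim Galore, HISAT2 2.1.0, HTSeq 0.8.0 and DESeq2 1.20.0 with the bovine build UMD3.1. The authors trimmed and aligned the reads, counted uniquely mapped reads per gene and deposited these raw counts for 24616 genes. Whether counting used the strand is not given in the sources used here. A second deposited table of normalized values was not used.

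From the raw counts, all genes with at least 20 reads summed over the cows were tested with edgeR 4.0.16 under R 4.3.3 (TMM factors, quasi-likelihood F test). One model held the 4 groups, and additive models gave HC versus LC and GLY versus CON over all cows. Calls needed a Benjamini-Hochberg adjusted p under 0.1 over all genes tested, besides an unadjusted p under 0.05. Standard errors were obtained from the log2 fold change and its F statistic. Levels are counts scaled by TMM to the mean library, which do not allow comparison between genes because transcript lengths were not at hand. Correlations used log2 CPM (prior count 2) centred on group means, with 100000 permutations of cows within groups. Cows of a group differed by more than sampling noise (chi-square per gene of 24.5 to 487 over 105 pairs). The precision of a gene rests on its reads, down to 381 over all cows for TREM2, and p-values rest on the spread between cows.

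The members, classes and lists were chosen with earlier results of these data known. Every member was named with a level or a log2 fold change. Statistics were given for members called, for up to 10 members with the smallest unadjusted p under 0.05 in each comparison, and for CD163, MARCO, CD5L, VSIG4, TIMD4, C1QA, CCR2, ITGAM, TREM2 and GPNMB. Of the lists of partner genes, those called and, in each comparison of HC with LC, the 3 with the smallest p were named. Alternatives were upper-quartile or RLE normalization, filterByExpr or no filter, a robust fit, only the compared groups, an adjusted p under 0.05, DESeq2 1.42.0 and leaving out each cow. Leaving out GLYLC cow 912 and CONLC cow 103 together was chosen after seeing the data. The edgeR comparisons, some of the DESeq2 comparisons and the correlations were tested on simulated data, and the other steps were not. Python 3.11.15 with pandas 2.3.3, numpy 2.4.6 and matplotlib 3.10.9 was used for correlations and figures. ITGAX, SOX9 and CDX2 had no row under these symbols. A gene of the pathway lists that the rule would name is not reported here.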

Additional observations from a re-analysis of the deposited data

Results flagged for a closer look

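In 12 of 144 combinations of gene and group, 1 cow lay far from the others of its group by Dixon's test. The test assumes a normal spread, under which it would flag about 1 in 20. It was run on scaled counts without a log scale, and the genes varied together. The 12 can therefore not be set against that rate. The 12 fell in 6 cows, and each was the highest of its group, as a scaled count. CONLC cow 260 accounted for 6 of them. It had 848 for AIF1 (next cow 617), 391 for CD86 (next 220.1), 23.6 for FCGR2A (next 13.7), 243 for SPI1 (next 139.9), 29.3 for TREM2 (next 12.4) and 289.7 for TYROBP (next 194). GLYLC cow 544 had 287 for CD86 (next 200.4) and 588 for MSR1 (next 342). GLYLC cow 102 had 14355 for GPNMB (next 4873), with a group median of 3015. GLYLC cow 912, the cow with intestinal genes, had 82.8 for NCF4 (next 45.4). In GLYHC, cow 131 had 158 for SLC11A1 (next 86.7) and cow 117 had 303 for SPI1 (next 184).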

How the results depend on the processing

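The number of members called with HC over all cows, 6, was 6 with RLE or upper-quartile normalization, filterByExpr or a robust fit, 8 with DESeq2 and 4 with no filter on low counts. It was 1 at an adjusted p under 0.05 and 1 without GLYLC cow 912 and CONLC cow 103. Leaving out 1 cow gave 1 to 13, with 83 to 404 genes called in all. It gave 1 without CONHC cow 41 or 133, CONLC cow 60 or 941, GLYHC cow 32, 117, 131, 152 or 159, or GLYLC cow 912. It gave 2 or 3 without CONHC cow 123 or 144, CONLC cow 103, 145, 166 or 259, GLYHC cow 127, or GLYLC cow 42 or 905. It gave 11 without CONHC cow 134 and 13 without CONLC cow 260. The adjusted p of FCGR2A stayed between 0.009 and 0.061 in these fits. In GLYHC versus GLYLC the 1 call, FCGR2A, was 0 calls at an adjusted p under 0.05, with no filter, filterByExpr, a robust fit, only the compared groups, or without cows 912 and 103, and 2 with DESeq2 on the compared groups. Leaving out 1 cow gave 0 to 1, with the call held only without CONHC cow 134 or 208, CONLC cow 260 or 941, GLYHC cow 37, or GLYLC cow 102, 147, 209 or 905. The other 5 comparisons had no member called under any alternative run. DESeq2 on the CON groups alone gave no adjusted p for 20 of the 36 genes. Over fits without 1 cow, the class medians of HC over LC stayed above 0, with the recruited median in CON cows at 0.12 to 0.31. Class medians of GLY over CON changed sign except the recruited one in GLYHC versus CONHC (0.08 to 0.25), as the recruited one in GLYLC versus CONLC did (-0.21 to 0.08).

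The sign of a named gene turned for MARCO and CCR2 alone. Without cows 912 and 103 in GLYHC versus GLYLC, MARCO was at 0.00618 and CCR2 at -0.0557. Over fits without 1 cow, MARCO ran from -0.456 to 0.0865 in CONHC versus CONLC, from -0.202 to 0.227 in GLYHC versus GLYLC and from -0.244 to 0.0341 over all cows, and CCR2 ran from -0.0819 to 0.238 in GLYHC versus GLYLC. The correlation of CD163 with MARCO missed an adjusted p of 0.05 without GLYHC cow 37 (r of 0.40), that of CCR2 with ITGAM without GLYLC cow 544 (r of 0.37), and that of CYBB with NCF4 passed it without GLYLC cow 912 (r of 0.40). FCGR2A with FCER1G passed it in several such fits, at an r of up to 0.59 without GLYLC cow 544. No paired analysis was possible because the groups share no cow numbers. Reads limit TREM2, FCGR2A and CCR2 most, with 381 to 498 reads each over all cows.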
